A study of Mus musculus with 40 samples.

Results

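The loci of Galnt1 and Eif2b3 were examined in a genome-wide reporter screen for enhancers in mouse HM-1 embryonic stem cells. A locus was the gene body, as spanned by curated RefSeq transcripts, with 25 kb on each side. On mm10 the Galnt1 body lies on chromosome 18 from 24205344 to 24286816 and the Eif2b3 body on chromosome 4 from 117019402 to 117086852, both on the plus strand. Each fragment whose centre fell in a locus was counted, and overlapping fragments of all 40 libraries were merged into regions. This gave 149 of the 458486 fragments and 10 of the 75060 regions of the screen. The Eif2b3 locus held 123 fragments in 8 regions, and the Galnt1 locus held 26 fragments in 2 regions. Membership was set by position, and the rule used no measured value.

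Galnt1 encodes a polypeptide N-acetylgalactosaminyltransferase, which attaches the first sugar of mucin type O-glycans to serine or threonine in the Golgi. Eif2b3 encodes the gamma subunit of eIF2B, the factor that reloads eIF2 with GTP and so allows translation to start. The reporter places a piece of open chromatin before a HSP68 minimal promoter and Venus-YFP, all integrated at the Hprt locus, so YFP reads whether that piece raises transcription away from its own gene. By this design, a fragment in a YFP-positive gate is taken to come from a cell that expressed the reporter. A fragment in the Negative gate is taken to come from a cell with no YFP above that of a construct without an insert.

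All cells were HM-1 (129/ola), a line with a non-functional Hprt locus that the integrated cassette repairs. Fragments cut by Tn5 from 5 stages were pooled, so each stage was tested with inserts from all of them. The stages were ES cells, FLK1+ hemangioblast cells (HB), hemogenic endothelium 1 (HE1: KIT+, TIE2+, CD41-), hemogenic endothelium 2 (HE2: KIT+, TIE2+, CD41+) and hematopoietic progenitors (HP: KIT+, TIE2-, CD41+), all differentiated in serum. Each stage was sorted into Negative, Low, Medium and High YFP gates in 2 replicates, giving 20 groups of 2 libraries. A stage of 1 replicate is called a sort below, and there were 10 sorts. Positive fragments of a sort were those found in its Low, Medium or High library, each counted once. Because the libraries are lists of DNA fragments and hold no RNA, the identity of the sorted cells could not be checked against marker genes.

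Libraries held 654 to 51146 fragments. Replicate 1 held 78.8% of all fragments (median 15805 a library) and replicate 2 held 21.2% (median 2750). The HE1 Negative and HE1 Medium libraries of replicate 1 had 28868 identical fragments, 69.8% of the former and 56.4% of the latter. At the Eif2b3 locus, 12 of the 16 HE1 Negative fragments of replicate 1 were identical to Medium ones. The ratios, differences and tests below are therefore also given without this sort.

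Pieces of the Eif2b3 locus that recurred across libraries are shown first, read from the mm10 plus strand, 5′ to 3′. The +37 kb region, named like the others by the distance of its centre from the Eif2b3 start, lies in an intron of Eif2b3. Its most covered 200 bases are chr4:117056592-117056791, touched by 17 of the region's 19 fragments, and hold none of the motif letters searched. The -17 kb region lies in Hectd3, upstream of Eif2b3. Its most covered 200 bases, chr4:117002670-117002869, were touched by all 25 of its fragments and include the whole of exon 18 of Hectd3, a coding exon shown in capitals, with intron on both sides.
Eif2b3 +37 kb, most covered bases: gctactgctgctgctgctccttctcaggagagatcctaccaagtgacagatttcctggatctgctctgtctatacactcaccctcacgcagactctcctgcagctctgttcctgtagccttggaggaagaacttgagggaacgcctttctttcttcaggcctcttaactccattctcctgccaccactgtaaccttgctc
Eif2b3 -17 kb, most covered bases: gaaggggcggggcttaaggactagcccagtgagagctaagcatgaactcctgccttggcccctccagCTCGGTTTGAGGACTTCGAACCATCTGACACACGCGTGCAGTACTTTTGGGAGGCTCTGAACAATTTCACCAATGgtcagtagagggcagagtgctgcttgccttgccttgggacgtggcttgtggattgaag

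Within the Eif2b3 locus, the regions at -17, +37 and +52 kb from its start held 74 of the 123 fragments. A further 3 regions, at +13, +22 and +72 kb, held 1 fragment each. The other 2 regions, with 46 fragments, are counted in all values given for the locus, and 1 of them held more fragments than any other region. They held 9 of the 11 ES fragments of the locus, so its ES values rest mostly on them. The gene body itself held 51 fragments, of which 49 were in the +37 and +52 kb regions. The fragment nearest to the Eif2b3 start was the single one at +13 kb. Urod and Hectd3 are protein-coding neighbours that lie in the stretch before the gene, and the pseudogenes Gm12997 and Gm22335 also lie in the locus.

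**Figure D1:**
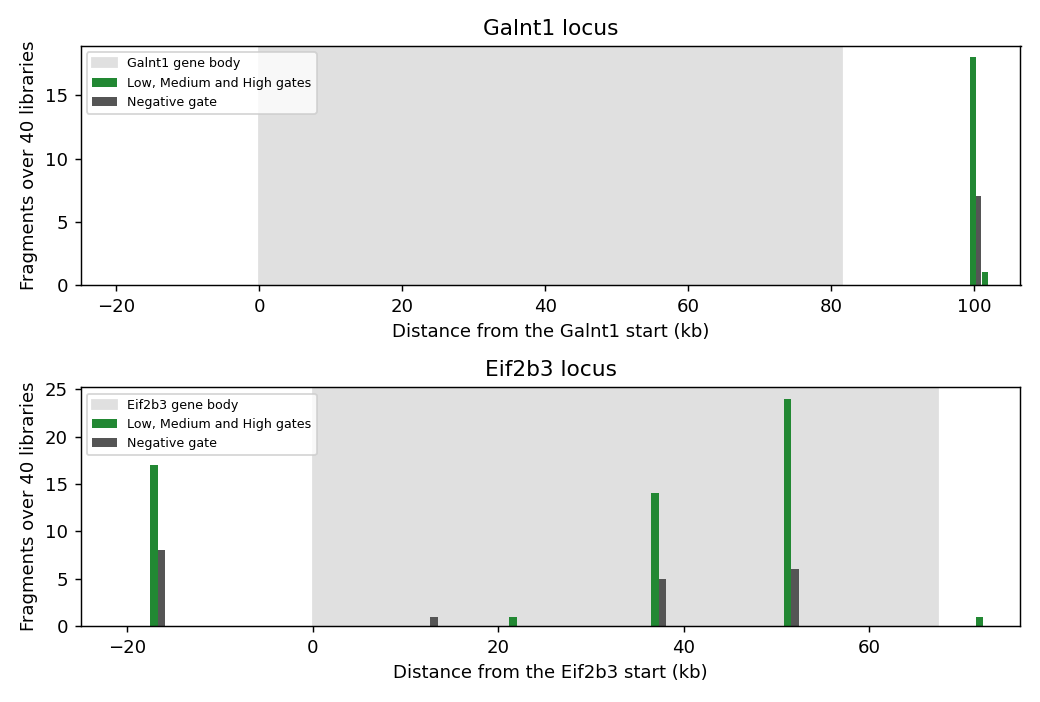
Fragments of the 2 Galnt1 regions and of 6 of the 8 Eif2b3 regions over the 40 libraries, plotted by distance of the region's centre from the gene start in kb, with Low, Medium and High gates together beside the Negative gate. The Eif2b3 panel, drawn up to the +72 kb region, has 3 tall pairs of bars, from 19 to 30 fragments, and the only tall pair of the Galnt1 locus (25 fragments) lies beyond the end of the gene.

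The +37 kb region (chr4:117056545-117056957, 413 bp) lies in intron 5 of 11 of Eif2b3, or intron 4 of 10 in a transcript that lacks an exon. It held 19 fragments, 15 of them distinct, and every one came from replicate 1. HE1 gave 4 Negative, 1 Low, 4 Medium and 6 High fragments. HE2 gave 1 Medium and 2 High fragments, and HP gave 1 Negative fragment. No ES or HB library held a fragment of this region, in any gate. The positive fragments were thus all from the hemogenic endothelium, where the Negative gate of HE1 also held the region. HE1 and HE2 were also the deepest sorts of replicate 1, with 101943 and 68427 positive fragments against 39671 in HP. Whether depth accounts for this stage pattern was not tested.

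The +52 kb region (chr4:117070557-117071450, 894 bp) covers the whole of exon 10 of Eif2b3, 149 bp long, and runs on into the following intron. In the transcript that ends early, 812 bp of the region are part of the last exon. It held 30 fragments, 25 of them distinct, again all from replicate 1. HE1 gave 4 Negative, 6 Low, 5 Medium and 3 High fragments. HE2 gave 2 Low, 2 Medium and 4 High fragments and no Negative one. HP gave 2 Negative, 1 Medium and 1 High. As at +37 kb, no ES or HB library held a fragment.

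Within the +52 kb region the stages did not cover the same bases. The 4 HP fragments began between -447 and -211 bp from the region's centre, on the side of the gene start, and 3 of them touched the 149-bp exon 10. The 18 HE1 and 8 HE2 fragments began no further to the left than -53 bp, and none touched the 149-bp exon 10. In the transcript that ends early, they lie in the last exon. The HP fragments and those of the hemogenic endothelium were joined into 1 region by a single HP Negative fragment that reached 19 bp past the centre. With 4 HP fragments from 1 replicate this difference in position was not tested.

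Regions of this depth without an ES or HB fragment were common. Of the 3138 regions of the screen with 19 to 30 fragments, 17.6% held none from ES or HB. The methods describe keeping a fragment only where its own stage had an ATAC peak. Whether this filter shaped the lists is not stated, and its part in these absences was not tested. ES and HB libraries made up 25.8% of all fragments, which would give 4.90 of the 19 fragments at +37 kb and 7.73 of the 30 at +52 kb. In replicate 1, the source of all these fragments, the share was 24.1%, which would give 4.58 and 7.23. The absence of replicate 2 was more common still, at 54.7% of those regions.

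**Figure D2:**
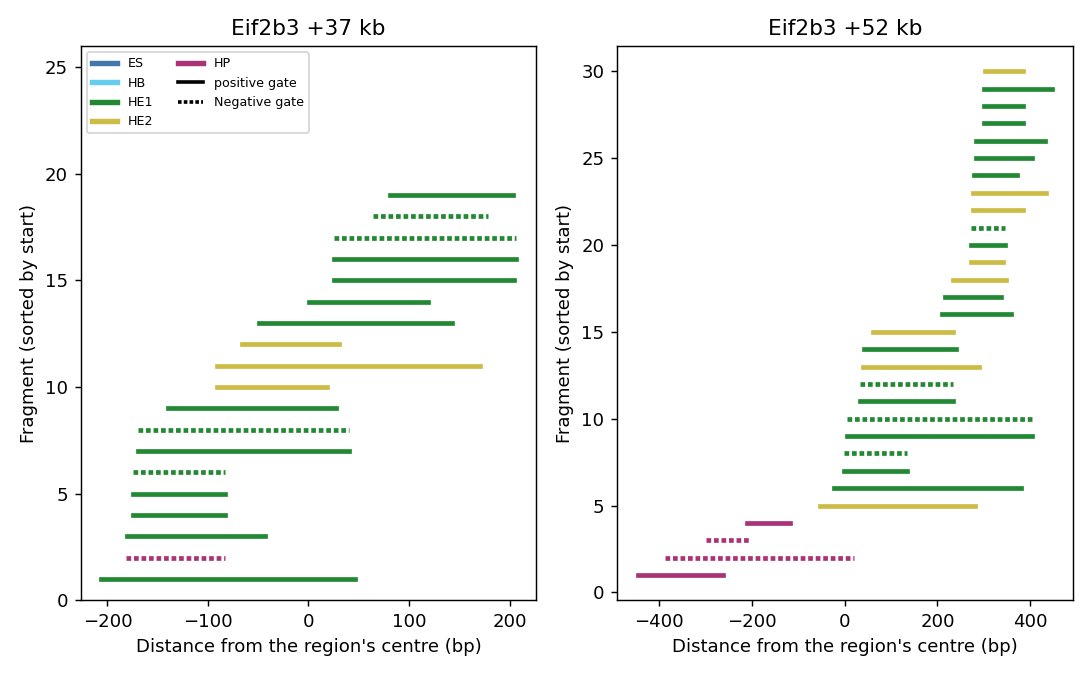
Every fragment of the Eif2b3 +37 and +52 kb regions as a line, by its distance in bp from the region's centre, coloured by stage and dotted where it came from the Negative gate. The HP fragments of the +52 kb region lie to the left of nearly all HE1 and HE2 fragments.

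The -17 kb region (chr4:117002385-117003061, 677 bp) lies in the body of Hectd3, which encodes a ubiquitin ligase of the HECT family. It spans exons 17, 18 and 19 of 21 and the introns between them. It held 25 fragments, 18 of them distinct. ES of replicate 1 gave 1 Negative and 1 Low fragment, HB gave 2 High, HE1 gave 4 Negative, 1 Low, 4 Medium and 3 High, HE2 gave 2 Medium and 1 High, and HP gave 3 Negative, 1 Medium and 1 High. Replicate 2 gave 1 HE1 Low fragment. A 329-bp fragment of this region was found in both replicates, in the HE1 Negative and HP Negative libraries of replicate 1 and in the HE1 Low library of replicate 2.

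Single fragments of the Eif2b3 locus fell in other places. Those at +13 kb (HP Negative, replicate 2) and +22 kb (HP Medium, replicate 1) lie in intron 3 of Eif2b3. The one at +72 kb (HB Low, replicate 2) lies 4.83 kb past the end of Eif2b3, outside any curated transcript.

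**Figure D3:**
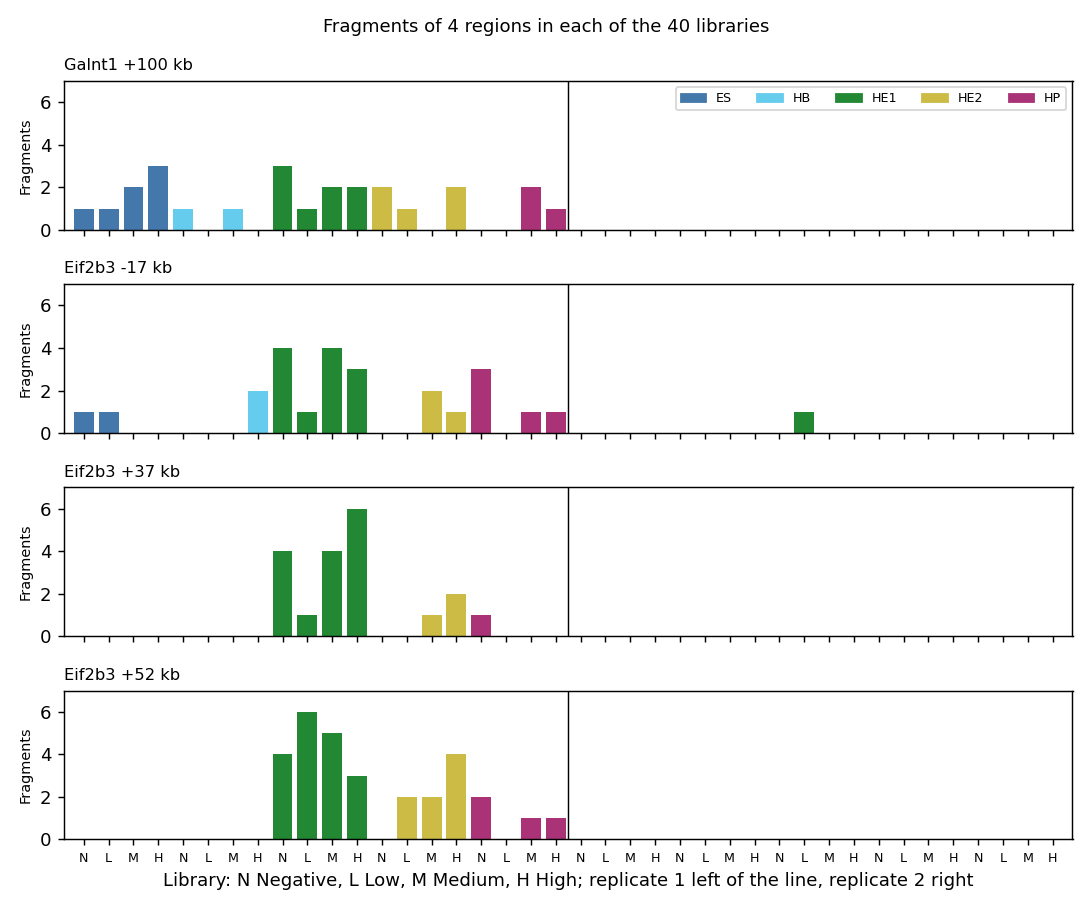
Number of fragments of 4 regions in each of the 40 libraries, coloured by stage, with replicate 1 to the left of the line and replicate 2 to the right. The Eif2b3 +37 and +52 kb regions have bars in HE1, HE2 and HP of replicate 1 alone, and the only bar in replicate 2 is the single HE1 Low fragment of the -17 kb region.

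Many pieces of DNA were recovered from both YFP-positive and Negative cells. Of the 94 distinct fragments of the Eif2b3 locus, 22 were in more than 1 library and 16 of these were in a Negative and a positive library. Over the screen, 63.4% of fragments found in more than 1 library had both. Much of this sharing lies in 1 pair of libraries, HE1 Negative and HE1 Medium of replicate 1. That pair holds 12 of the 16 at Eif2b3 and 28868 of the 42828 such fragments of the screen. Sharing without this pair was not counted.

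To ask whether the Eif2b3 locus was more frequent among positive cells, its share of positive fragments was compared with its share of negative ones within each sort by a Cochran-Mantel-Haenszel test, with p adjusted by Benjamini-Hochberg over all 9442 gene loci with at least 20 fragments. The locus gave 90 positive fragments where 91.2 were expected from the depth of each sort. The ratio of observed to expected was 0.987 (odds ratio 0.94, 95% interval 0.616 to 1.45; adjusted p = 1.00 and, in an exact test of the same strata added after seeing the data, unadjusted p = 0.824). The median ratio over all gene loci was 1.00, with 0.866 and 1.13 at the 5th and 95th percentiles. Neither locus was among the 7 gene loci called, 0.0741% of those tested, and 3.37% of gene loci had an unadjusted p under 0.05. Without HE1 of replicate 1 the Eif2b3 ratio was 0.979.

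The rate of the Eif2b3 locus varied between sorts. In fragments per 10000 fragments of a sort, positive rates in replicate 1 were 2.89 in ES, 1.03 in HB, 3.83 in HE1, 3.07 in HE2 and 2.77 in HP. In replicate 2 they were 1.11, 0.819, 0.862, 2.88 and 1.92 in the same order. Negative rates in replicate 1 were 1.93 in ES, 0 in HB, 3.87 in HE1, 0 in HE2 and 9.46 in HP, and in replicate 2 they were 0, 0, 3.61, 3.67 and 1.34. The highest value, that of HP Negative of replicate 1, rests on 8 fragments of 8458.

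The positive and negative rates of Eif2b3 overlapped. The mean positive rate was 2.12 ± 1.10 (SD, n = 10 sorts) and the mean negative rate 2.39 ± 2.97. The positive rate was higher in 6 sorts and lower in 4, and the mean difference of -0.27 ± 2.70 gave p = 0.803 in a two-sided exact permutation test that exchanged labels within sorts. Without HE1 of replicate 1 it was -0.295. Of all gene loci, 6.37% had an unadjusted p under 0.05 in this test, and the lowest adjusted p of any locus was 0.685. A rate of 0 in a Negative library is loose at this depth: 0 of the 3056 HB fragments of replicate 2 allows a rate of up to 9.82 per 10000, counting error only.

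**Figure D4:**
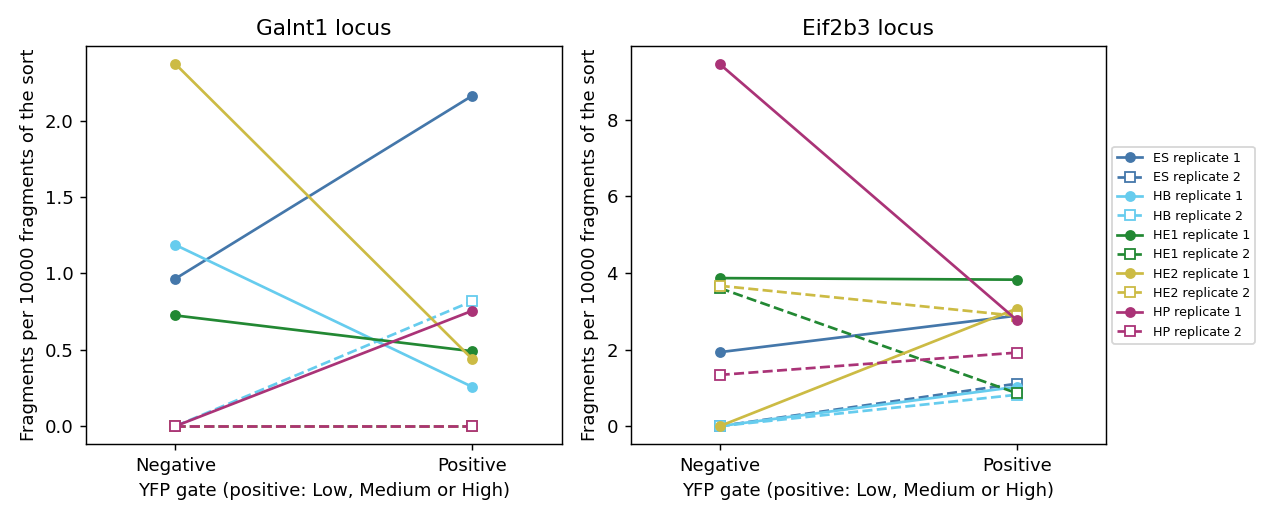
Fragments of each locus per 10000 fragments of the sort, in Negative and in positive cells, with 1 line for each of the 10 sorts (filled circles replicate 1, open squares replicate 2). The lines of both loci rise in some sorts and fall in others.

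In the brightest and the dimmest positive cells the rates of the Eif2b3 locus overlapped. The High libraries held 37 fragments and the Low libraries 23, which gave mean rates of 2.58 ± 2.32 and 2.18 ± 2.19 (SD, n = 10). High was above Low in 6 sorts and below it in 4. The mean difference was 0.402 ± 3.51 and p = 0.719 by the exact permutation test, against 3.54% of gene loci under 0.05. Without HE1 of replicate 1 the difference was 0.740, with an exact permutation p = 0.543.

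Across stages, mean positive rates of the Eif2b3 locus were 2.00 in ES, 0.923 in HB, 2.34 in HE1, 2.98 in HE2 and 2.35 in HP (n = 2 each). HB was the lowest, but HE1 of replicate 2, at 0.862, lay between its values of 1.03 and 0.819. An exact permutation test of the spread of the stage means, exchanging stages within replicates in 120 arrangements, gave p = 0.350, and 1.86% of gene loci were under 0.05. The smallest p this design allows is 0.00833. Leaving out HE1 of replicate 1 or of replicate 2, after which HE1 rests on 1 sort, lowered p to 0.0417 and 0.0167.

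Of the single regions of the Eif2b3 locus, the +52 kb region had 23 positive fragments for 22.5 expected (odds ratio 1.11, interval 0.445 to 2.76), and without HE1 of replicate 1 its ratio of observed to expected fell from 1.02 to 0.960. The -17 kb region had 17 for 19.4 (odds ratio 0.61, interval 0.259 to 1.44), with p = 0.328 in the exact test of the same strata, lower than at +52 kb or at the Galnt1 +100 kb region, and its ratio fell from 0.878 to 0.832 without that sort. Both had an adjusted p of 1.00 over 5742 regions, of which 12 were called (0.209%). The +37 kb region, at 19 fragments, was under the minimum of 20. With a minimum of 10 it had 13 positive fragments for 13.5 expected and an adjusted p of 1.00. Most of these came from HE1 of replicate 1, and without that sort 3 positive fragments were left for 3.49 expected.

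**Figure D5:**
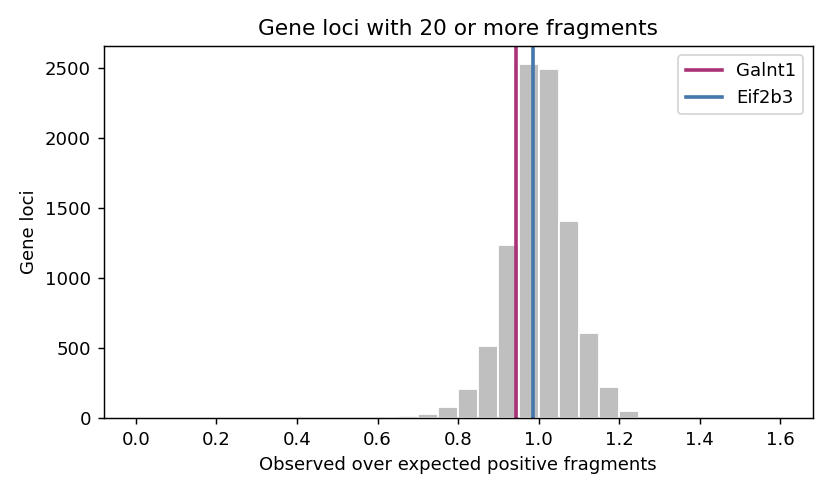
Ratio of observed to expected positive fragments for the 9442 gene loci with at least 20 fragments, as counts of loci in steps of 0.05, with Galnt1 and Eif2b3 as vertical lines. The Galnt1 line lies at 0.943, above 19.4% of loci, and the Eif2b3 line at 0.987, above 40.8%.

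Letters of motifs of factors known from endothelial and blood cells were searched on both strands. AP-1, the FOS and JUN dimer, was searched as TGACTCA, whose reverse complement is its other usual form. TEAD, the DNA-binding partner of YAP, was searched as GGAATGC and also with the last base changed, as GGAATGT. RUNX was searched as TGTGGTC and, with its last base changed, as TGTGGTT. ETS factors were represented by AGGAAGT and GATA factors, which direct blood and endothelial genes, by AGATAAG. SOX factors were represented by ACAAAGG or, with another base in the fifth place, by ACAATGG. The E-box bound by helix-loop-helix factors was CAGCTG. The +52 kb region held 1 AP-1, 1 SOX and 1 E-box match, all within the part covered by HE1 and HE2 fragments and past the last HP one. For comparison, windows of the same length were taken around the centres of the screen's regions. AP-1 letters were in 20.1% of these windows, SOX in 30.3% and the E-box in 42.3%. The median region was 264 bp wide, so most windows reached past their region. The +37 and -17 kb regions held no match to any of the 7 motifs. The E-box letters read the same on both strands, and none of these matches overlapped another. The GC content was 49.2% at +37 kb, 48.0% at +52 kb and 56.4% at -17 kb, the last above 92.3% of windows of its length.

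The Galnt1 locus differed in where its fragments lay. The lists analysed here held 0 fragments centred in the Galnt1 body, of 458486 in all, and none in the 25 kb before it. The 0 in the body allows a share of up to 0.000654%, counting error only. That limit does not cover fragments that filters may have removed. Bodies without a fragment were not rare: of 1769 genes whose bodies are 60 to 100 kb long, 17.0% had none, and the median was 6. The values below therefore describe the 25 kb past the gene and say nothing about elements inside it. That stretch holds a lncRNA model, Gm38565, and the body holds the pseudogene Gm7701.

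The +100 kb region (chromosome 18, 24305283 to 24305797, 515 bp) lies 18.7 kb past the end of Galnt1, within the Gm38565 model and outside any curated transcript. It held 25 fragments, 16 of them distinct, all from replicate 1, and all 5 stages were present. ES gave 1 Negative, 1 Low, 2 Medium and 3 High fragments. HB gave 1 Negative and 1 Medium. HE1 gave 3 Negative, 1 Low, 2 Medium and 2 High. HE2 gave 2 Negative, 1 Low and 2 High, and HP gave 2 Medium and 1 High with no Negative one. It thus had fragments from ES and HB (9 of 25), where the Eif2b3 +37 and +52 kb regions had none. The locus held 1 further fragment, at +102 kb, from HB High of replicate 2.

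Some pieces of the Galnt1 region were also shared between gates. Of the 17 distinct fragments of the locus, 6 were in more than 1 library, and 5 of these were in a Negative and a positive one. The HE1 Negative and HE1 Medium libraries of replicate 1 held 2 of these 5 in common. A 109-bp fragment was in 3 positive libraries, HE1 Low, HE2 High and HP High. Fragments of 96 and 217 bp were each in 2 positive libraries and 1 Negative. The region held 1 RUNX and 1 SOX match, and none for AP-1, TEAD, ETS, GATA or the E-box. Of windows of its length around the centres of the screen's regions, 20.5% held RUNX letters and 19.8% SOX letters.

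Positive and negative cells held the Galnt1 locus at rates that could not be told apart at this depth. It gave 19 positive fragments for 20.2 expected, a ratio of 0.943 (odds ratio 0.79, 95% interval 0.332 to 1.87; Cochran-Mantel-Haenszel adjusted p = 1.00, and p = 0.633 in the exact test of the same strata). The +100 kb region alone gave 18 for 19.4 (odds ratio 0.75, interval 0.315 to 1.79; exact p = 0.474, adjusted p = 1.00). Without HE1 of replicate 1 the ratios were 0.968 for the locus and 0.951 for the region.

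In replicate 1 the positive rates of Galnt1 per 10000 fragments were 2.16 in ES, 0.257 in HB, 0.490 in HE1, 0.438 in HE2 and 0.756 in HP. The negative rates were 0.966, 1.19, 0.725, 2.37 and 0 in the same order. In replicate 2 the only value above 0 was the positive rate of HB, 0.819 from 1 fragment. The means were 0.493 ± 0.667 for positive and 0.525 ± 0.799 for negative cells (SD, n = 10), with positive higher in 3 sorts, lower in 3 and equal at 0 in 4. The exact permutation test gave p = 0.906. Without HE1 of replicate 1 the difference was -0.0100.

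Galnt1 fragments numbered 9 in High and 3 in Low libraries. The mean rates were 0.678 ± 0.963 and 0.207 ± 0.371, with High above Low in 4 sorts, below it in 1 and both at 0 in the others. The difference of 0.471 ± 0.734 had p = 0.125 (exact permutation, n = 10) and an adjusted p of 0.909 over all gene loci, and was 0.538 without HE1 of replicate 1. Sorts at 0 in both gates cannot change this p, and with the others it could not fall below 0.0625. The mean positive rate was highest in ES, at 1.08, against 0.538 in HB, 0.245 in HE1, 0.219 in HE2 and 0.378 in HP, but the ES value came from replicate 1 alone. The exact permutation test across stages gave p = 1.00. The SD of the stage means was 0.316, and 0.366 without HE1 of replicate 1. This test could not decide whether the stages differ at Galnt1. It exchanges stages within replicates, and in replicate 2 only HB, with 1 positive fragment, was above 0. Many of the 120 arrangements thus gave the same spread, and p could not fall to the 0.00833 that the design otherwise allows.

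Per 100 kb of locus, mean rates were lower at Galnt1 than at Eif2b3, in positive and in Negative cells. The mean positive rates were 0.375 ± 0.507 and 1.80 ± 0.939 per 10000 fragments, and Eif2b3 was higher in 10 of 10 sorts. The difference was -1.43 ± 0.916 with p = 0.00195 by the two-sided exact permutation test, the smallest p that 10 sorts allow. Per the methods, later stages were differentiated from the selected cells that carried the inserts. Sorts of 1 replicate may thus share inserts and not be independent, which this p does not take into account. The mean Negative rates were 0.399 ± 0.607 and 2.03 ± 2.53, with Eif2b3 higher in 6 sorts, lower in 2 and equal in 2, and this difference was not tested. Without HE1 of replicate 1 the positive difference was -1.27. Over the Eif2b3 regions from -17 to +72 kb and both Galnt1 regions, a choice made after seeing the data, it was -0.334 ± 0.939. There Eif2b3 was higher in 6 sorts, lower in 1 and equal in 3, with an exact permutation p = 0.266. This choice left out the other 2 Eif2b3 regions but kept the full locus length. The Eif2b3 rate could thus not rise, and what the difference rests on was not tested. With flanks of 10 kb, Galnt1 held no fragment and most sorts had no positive fragment at either locus. The difference was then -0.622 with an exact permutation p = 0.125, the smallest that this setting could give. With flanks of 25 kb, p was 0.0625 when replicates were averaged first, the smallest that 5 stages allow.

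The pathways of both genes were followed through lists of their partners. For mucin type O-glycosylation, 28 of 29 genes had a fragment in their locus and 13 had enough to be tested. None was called and none had an unadjusted p under 0.05, where 0.0741% and 3.37% of all gene loci did. Their ratios of observed to expected positive fragments ran from 0.914 (Galnt10) to 1.12 (Galnt7), both relatives of Galnt1, with a median of 0.967, against 1.00 over all gene loci. For initiation by eIF2 and eIF2B, 15 of 16 genes had a fragment, 7 could be tested, 0 were called and 0 had an unadjusted p under 0.05, against the same 0.0741% and 3.37%. Their ratios ran from 0.956 (Ppp1r15b, a regulatory subunit of the eIF2α phosphatase) to 1.10 (Eif2ak3, the eIF2α kinase PERK), with a median of 0.992.

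The partners of Eif2b3 in the eIF2B complex had few fragments. Eif2b1 and Eif2b4 had 1 each, Eif2b2 had 13 and Eif2b5 had 14, all under the minimum. Per 100 kb, the 105 fragments of the Eif2b3 locus compare with 1.70, 1.80, 22.8 and 23.1 at these. The Galnt1 locus, at 19.8 per 100 kb, lay below Galnt2 (65.7) and Galnt10 (53.1) and above Galnt3 (3.26).

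The other genes whose enhancers were tested singly by the study, Sparc, Pxn, Hspg2, Dlk1 and Runx1, had 39 to 431 fragments in their loci. Their ratios ran from 0.996 (Pxn) to 1.06 (Sparc), with a median of 1.04, and none of the 5 was called or had an unadjusted p under 0.05, again against 0.0741% and 3.37% of all gene loci. In number of fragments, Eif2b3 lay above 85.2% of tested gene loci and Galnt1 above 14.2%.

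The gene loci whose rates over the 40 libraries were most like those of Eif2b3 were Fermt2 (Pearson r = 0.634), Smad1 (0.631) and Myo10 (0.608), against a median r of 0.0804 over 4835 loci. For Galnt1 they were Ltbp2 (0.790), Utp11 (0.781) and Mir146 (0.753), against a median of 0.173. These correlations are descriptions over libraries that share depth and cloned inserts.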

How the data were processed

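Inserts were amplified from sorted cells with 25 to 30 PCR cycles and sequenced as pairs. Per the methods, the authors used Trim Galore for trimming and Bowtie2 for alignment to mm10 (inserts up to 600 bp). They kept proper pairs of mapping quality over 40, took the span of each pair and removed duplicates. They described filters against an untransfected background library and by distance from a start site (1500 bp). A further filter was described as keeping fragments in open chromatin that had an ATAC peak at the matching stage. The methods for these libraries give no tool versions and do not say which filters apply to the lists. The deposited values are fragment coordinates, 1 list per library with no read counts, so a fragment counts once per library. Without molecular identifiers, intervals and limits (3 counts for a 0) cover counting error only.

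Libraries were grouped by the labels' stage, gate and replicate. Nothing in the labels says that replicates were separate cultures, so p-values may measure technical spread. The reference, GRCm38.p6, is the assembly that mm10 names. The members, the gene lists and the tests were chosen with earlier results of these data known. Named regions were the 5 of each locus with most fragments and any called, except that 2 regions at the Eif2b3 locus are not reported one by one here; genes alike were the 3 non-overlapping loci of at least 50 fragments with the highest r. Sorts were the strata of the Cochran-Mantel-Haenszel test (continuity corrected, Python 3, own code tested on simulated data), and odds ratio intervals follow Robins, Breslow and Greenland. The pairing of gates within a sort comes from the labels. Alternatives were collapsing fragments whose ends lie within 5 bp, leaving out each replicate or sort, no replicate block, a minimum of 10, positive as Medium or High, dropping fragments found in positive and negative cells of a sort, and flanks of 10 and 50 kb.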

Additional observations from a re-analysis of the deposited data

Results flagged for a closer look

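The difference between positive and negative rates at the Eif2b3 locus went one way in some stages and the other way in another. It was above 0 in both replicates of ES (mean 1.03 per 10000 fragments) and of HB (mean 0.923), and below 0 in both replicates of HE1 (mean -1.39), but there it was -0.0415 in replicate 1, the deepest sort, and -2.74 in replicate 2. The difference between these stages was not tested. Of the 11 ES fragments of the locus, 9 lie outside the regions from -17 to +72 kb. In 3 of the 4 sorts of ES and HB the Negative library held no fragment of the locus, and the HE1 value of replicate 2 rests on 1 Negative fragment of 2773.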

How the results depend on the processing

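Neither locus nor any of their tested regions described here was called in the positive against negative comparison under any of the alternatives run, and the exact test added after seeing the data called the same numbers of regions (12) and gene loci (7). The directions of these small differences did turn, and the cause was not tested. With positive as Medium or High, the ratio at Eif2b3 +52 kb was 0.976, the mean Galnt1 difference was 0.0686 and the regions called numbered 4. Without fragments found in both positive and negative cells of a sort, the mean Eif2b3 difference was 0.0721, and 26 regions and 14 gene loci were called. With 10 kb flanks the Eif2b3 ratio was 1.00 (1.004) and its High minus Low difference -0.0996, and Galnt1 minus Eif2b3 was -0.622. With 50 kb flanks the ratios were 1.00 (1.002) for Galnt1 and 1.03 for Eif2b3, the positive minus negative differences 0.221 and 0.243, and the gene loci called 13. A minimum of 10 fragments called 11 gene loci. Counting fragments with both ends within 5 bp once left 26 Galnt1 and 121 Eif2b3 fragments and called 0 regions and 0 gene loci by the Cochran-Mantel-Haenszel test, with 109 and 199 at an unadjusted p under 0.05. With no replicate block, 30 regions were called, the Eif2b3 and Galnt1 ratios were 0.987 and 0.952, and Galnt1 minus Eif2b3 was -1.43 with an exact permutation p = 0.0625. Over the Eif2b3 regions from -17 to +72 kb and both Galnt1 regions, also added after seeing the data, it was -0.334 with an exact permutation p = 0.266. The stage test could not be run with averaged replicates or without a replicate, and Galnt1 has no value at 10 kb.

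Leaving out 1 replicate or sort gave ratios of 0.863 to 1.25 for Galnt1 and 0.951 to 1.05 for Eif2b3, 0.842 to 1.01 at +100 kb, 0.832 to 1.08 at -17 kb and 0.960 to 1.09 at +52 kb. Positive minus negative differences ran from -0.229 to 0.179 for Galnt1 and from -0.641 to 0.443 for Eif2b3. High minus Low ran from 0.321 to 0.604 and from -0.417 to 1.22, the SD of stage means from 0.179 to 0.737 and from 0.639 to 0.970, and Galnt1 minus Eif2b3 from -1.69 to -1.17, with 5 sorts and so p = 0.0625 (exact permutation) without either replicate. Over the screen, regions called numbered 5 (without replicate 2) to 20 (without HP of replicate 2), and gene loci 2 (without replicate 2) to 9 (without HE1 of replicate 1). Most values rest on replicate 1, so replicate 2 limits what its absence can show.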
